A study of Mus musculus with 59 samples.

Results

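Pax3, Pax6 and Pax7 were followed as 3 genomic windows in a chromatin immunoprecipitation sequencing series of mouse brainstem tumours and neurospheres. The windows were taken by position on build mm9: chr1:78085000-78210000 for Pax3, chr2:105495000-105550000 for Pax6 and chr4:139280000-139405000 for Pax7. All islands and peaks that overlapped them by at least 1 bp were members, which gave 291 of the 1107554 intervals in all deposited lists, namely 185 H3K27me3 islands, 57 H3K27ac peaks and 49 H3K4me3 peaks. No mm9 annotation was used here, so the windows carry these gene names by the choice of coordinates, and exons, introns and start sites are not placed within them.

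Lists from 36 of the series' 59 samples were used, since 23 samples are input DNA. Brainstem tumours carried Nestin-creERT2, which recombines in nestin-expressing cells, with LSL-PDGFRαV544ins, Trp53 flox/flox and either H3f3a LSL-K27M-Tag/+ (K27M) or H3f3a LSL-WT-Tag/+ (WT), so the tumour controls shared the PDGFRα and Trp53 alleles and a tagged histone. Neurospheres, floating cultures of neural precursors, came from brains at e15.5 with Nestin-cre and the same H3f3a alleles, without the PDGFRα or Trp53 alleles. H3K27me3 was profiled in 6 K27M tumours (4 male, 2 female), 5 WT tumours (1 male, 4 female), and 3 hindbrain K27M, 3 hindbrain WT and 3 forebrain K27M neurosphere libraries, of which hindbrain WT experiment 3 was the 1 male. H3K27ac was profiled in all 11 tumours, and H3K4me3 in K27M tumours 2 and 6 and WT tumours 7, 9 and 10. No forebrain WT library was analysed here. These are bulk samples, so fewer cells with a mark and less of the mark per cell cannot be told apart.

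Pax3 and Pax7 are closely related paired-box transcription factors that pattern the dorsal neural tube and mark neural crest and muscle progenitors. Pax6 acts in the eye, in cortical radial glia and in progenitors of the hindbrain rhombic lip. H3K27me3 is the mark of Polycomb repressive complex 2 and typically covers such developmental regulators where they are silent, whereas H3K4me3 marks promoters and H3K27ac marks active promoters and enhancers.

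Promoter sequences are shown because Polycomb marks are known to favour CG-rich starts. The RefSeq promoter table on GRCm38.p6 held 2 starts of Pax6 and 1 of Pax7, each as 250 bases before to 50 bases after the start, and no Pax3 sequence is shown. That build is not the build of the lists, so these sequences were not placed on the islands. Capitals mark CG dinucleotides, which read the same on both strands.
Pax6 promoter, GRCm38.p6 chr2:105668646-105668945, plus strand: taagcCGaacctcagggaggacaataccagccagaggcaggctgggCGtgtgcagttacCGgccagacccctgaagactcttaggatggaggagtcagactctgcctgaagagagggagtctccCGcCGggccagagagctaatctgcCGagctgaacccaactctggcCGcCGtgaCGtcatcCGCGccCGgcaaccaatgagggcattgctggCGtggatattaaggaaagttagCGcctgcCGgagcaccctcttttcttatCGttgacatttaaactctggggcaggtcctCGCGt
Pax6 promoter, GRCm38.p6 chr2:105682213-105682512, plus strand: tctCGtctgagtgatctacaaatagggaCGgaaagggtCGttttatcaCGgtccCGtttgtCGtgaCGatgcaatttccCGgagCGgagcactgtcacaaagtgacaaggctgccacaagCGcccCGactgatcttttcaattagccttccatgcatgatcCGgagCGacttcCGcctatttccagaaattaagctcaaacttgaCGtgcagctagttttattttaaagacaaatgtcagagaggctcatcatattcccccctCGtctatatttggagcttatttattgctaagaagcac
Pax7 promoter, GRCm38.p6 chr4:139832919-139833218, minus strand: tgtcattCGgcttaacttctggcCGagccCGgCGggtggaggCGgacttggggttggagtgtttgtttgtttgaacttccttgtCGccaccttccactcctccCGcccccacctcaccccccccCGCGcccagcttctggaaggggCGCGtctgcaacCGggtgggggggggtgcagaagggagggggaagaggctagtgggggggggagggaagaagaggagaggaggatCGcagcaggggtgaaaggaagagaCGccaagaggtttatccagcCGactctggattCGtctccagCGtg
The first Pax6 promoter held 18 CG dinucleotides, and 29.7% of the 32851 promoters in the table held as many or more. The second Pax6 promoter held 16, a number reached by 33.0% of promoters. The Pax7 promoter held 17, a number reached by 31.4%. All 3 were above the table's median of 7, without being among its most CG-rich promoters.

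Reads inside H3K27me3 islands numbered from 3208588 to 16323822 per list, with WT tumour 11 the shallowest and WT tumour 10 the deepest. Levels below are reads of the islands touching a window per 1000000 reads in all islands of the same list (RPM). Islands that cross a window's edge are counted whole, with their reads beyond the window. This unit is a share of a list, not an amount of the mark, since no spike-in scale was used. The lists differed in length: K27M neurosphere lists held 6905 to 10739 islands, against 18604 to 19667 in hindbrain WT.

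**Figure D1:**
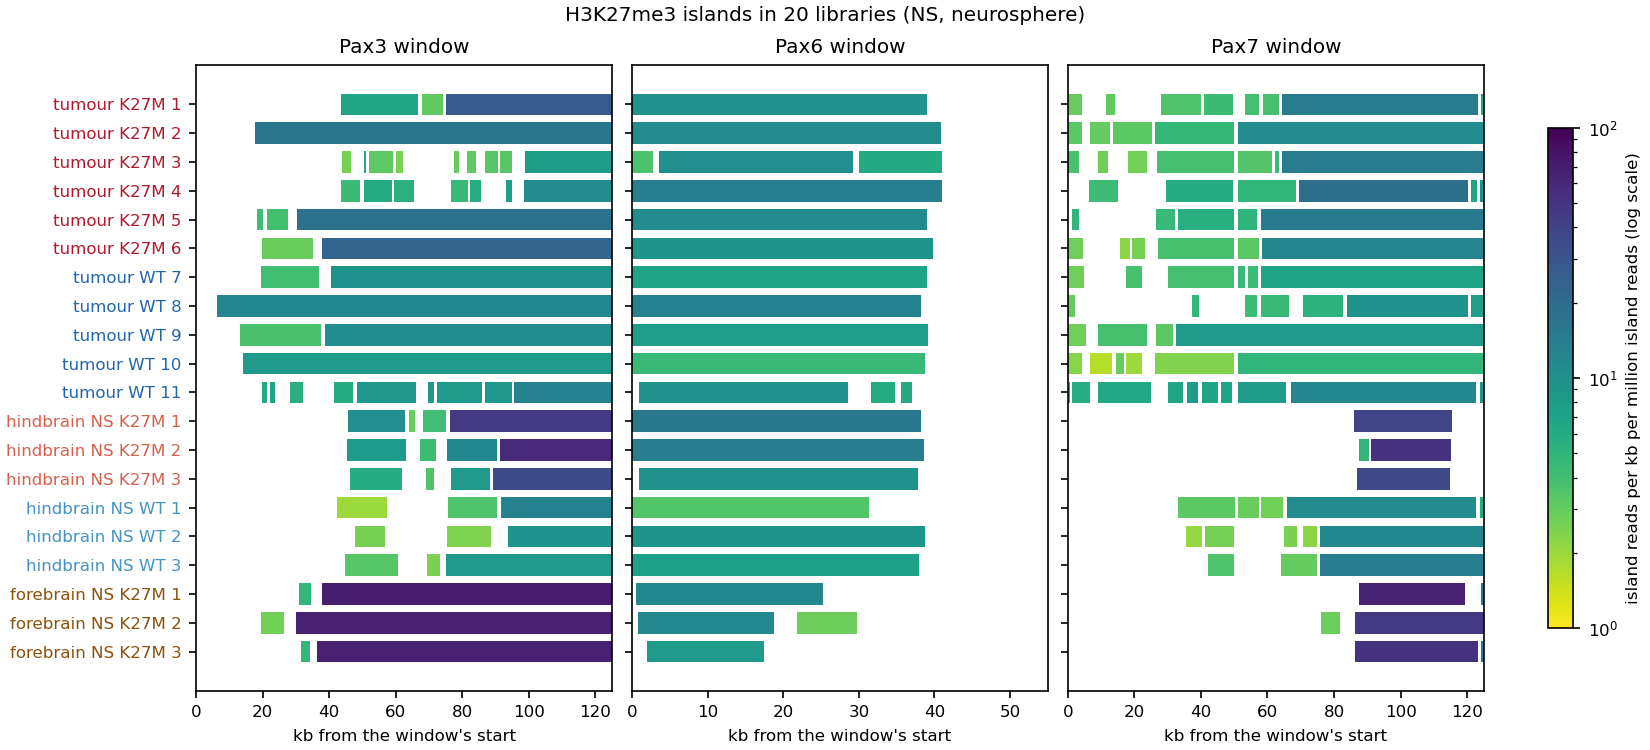
H3K27me3 islands along the 3 windows, 1 row per library; the horizontal axis is kb from the window's start and the colour is island RPM per kb on a log scale. Pax6 islands of every library end at or before 41 kb, and Pax7 islands of the hindbrain K27M neurospheres cover only between 26.6 and 29.4 kb.

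At Pax3, H3K27me3 islands were present in all 20 libraries, and 36.4 kb of the window lay in an island in every one of them. The longest such stretch, chr1:78183801-78210000, ran to the window's end. The share of island reads was highest in forebrain K27M neurospheres, where the 3 libraries had 6909, 7244 and 6539 RPM (mean 6897 ± 353, SD, n = 3). Hindbrain K27M neurospheres had 2830, 2911 and 1801 RPM (2514 ± 619, n = 3). Hindbrain WT neurospheres had the lowest mean, with 646, 429 and 635 RPM (570 ± 122, n = 3). All 3 hindbrain K27M libraries were above all 3 WT libraries, and all 3 forebrain libraries were above both. No share over tiles was computed in RPM, so this order is a description. The largest Pax3 island ranked 5 by reads in each of the 3 forebrain lists. Some tumours came close, with ranks of 7 in K27M tumour 6, 8 in WT tumour 8 and 9 in K27M tumour 2, and the lowest was 406 in K27M tumour 3. Ranks ran from 48 to 130 in hindbrain K27M and from 230 to 436 in hindbrain WT.

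Tumour group means at Pax3 lay between those of hindbrain K27M and hindbrain WT neurospheres, with a wide spread among K27M tumours. The 6 K27M tumours ran from 298 to 2434 RPM with a median of 1840 (mean 1501 ± 870, n = 6). The 5 WT tumours had 1106, 1760, 1203, 1152 and 901 RPM (1224 ± 320, n = 5). K27M tumours 3 and 4, at 298 and 541, were the 2 lowest of the 11, while the other 4 K27M tumours were above every WT tumour. The order of group means was forebrain K27M, hindbrain K27M, tumour K27M, tumour WT and hindbrain WT, and the 2 tumour groups overlapped each other.

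In covered length at Pax3, K27M tumours 3, 4 and 1 were below every WT tumour and no K27M tumour was above the WT median. Islands covered from 50.4 to 107.4 kb of the 125 kb window in K27M tumours, with a median of 90.9 kb (83.1 ± 25.1, n = 6), and tumours 3, 4 and 1 had 50.4, 56.2 and 79.4 kb. In WT tumours they covered 101.6, 118.8, 110.6, 110.8 and 83.2 kb (105.0 ± 13.6, n = 5). The groups overlapped, and the difference of -21.9 kb had p = 0.123 in a two-sided exact permutation test (adjusted p = 0.620 over autosomal tiles of the same length), -17.5 kb with p = 0.307 when genotype was permuted within sex, and -1.10 kb with p = 1 in the 2 K27M and 4 WT females alone. Groups did not overlap in 1.18% of 125 kb tiles in this comparison, and in 1.11% of 55 kb tiles. Read sums over the merged region chr1:78091201-78236400 likewise overlapped, with a log2 fold of 0.34 (SE 0.46, adjusted p = 0.667 in edgeR's quasi-likelihood test). Of 3067 tumour regions tested, 7.11% rose and 4.66% fell, and none of the regions over the 3 windows was among them.

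In hindbrain neurospheres, Pax3 island reads rose in K27M against WT. In the 76.6 kb region chr1:78152401-78229000, K27M libraries had 4844, 5213 and 3142 reads per 1000000 in regions called in every library (CPM), and WT libraries had 848, 565 and 588 CPM. The log2 fold was 2.72 (SE 0.26, adjusted p = 0.000308, edgeR quasi-likelihood test), higher in 3 of 3 K27M libraries. The neighbouring 20.8 kb region chr1:78127201-78148000 gave a log2 fold of 2.60 (SE 0.31, adjusted p = 0.000751). Of 3334 regions tested, 25.9% rose by the same rule and 28.4% fell, K27M was higher without overlap in 30.8%, and the larger Pax3 region ranked 16 by log2 fold. Without TMM factors, which rescale on the bulk of common regions, the median of all regions shifted from -0.11 to -1.02 and the larger Pax3 region kept a log2 fold of 1.80 (adjusted p = 0.000579).

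Pax3 covered length in the same libraries was 74.6, 71.4 and 65.4 kb in K27M and 63.2, 53.6 and 69.8 kb in WT, and the groups overlapped (p = 0.2, two-sided exact permutation test, of a smallest possible 0.1). Both genotypes shared 52.2 kb covered in all 6 libraries, and no base was covered in all 3 WT and no K27M library. In this comparison 60.3% of 125 kb tiles were lower in K27M without overlap.

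Forebrain against hindbrain K27M neurospheres differed at Pax3 in both measures. The 111.0 kb region chr1:78115001-78226000 had 7427, 8003 and 6963 CPM in forebrain and 2974, 3210 and 1807 CPM in hindbrain. It rose with a log2 fold of 1.49 (SE 0.20, adjusted p = 0.00106, edgeR), where 31.4% of 3363 regions passed that rule in either direction and 25.7% were higher without overlap. Islands covered 90.8, 101.8 and 91.4 kb in forebrain, above every hindbrain K27M library, with the smallest p the exact permutation test allows (0.1, adjusted p = 0.329). Forebrain was higher without overlap in 13.4% of 125 kb tiles. The extra length included chr1:78122801-78130200, 7.4 kb that was covered in all 3 forebrain and no hindbrain K27M library.

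**Figure D2:**
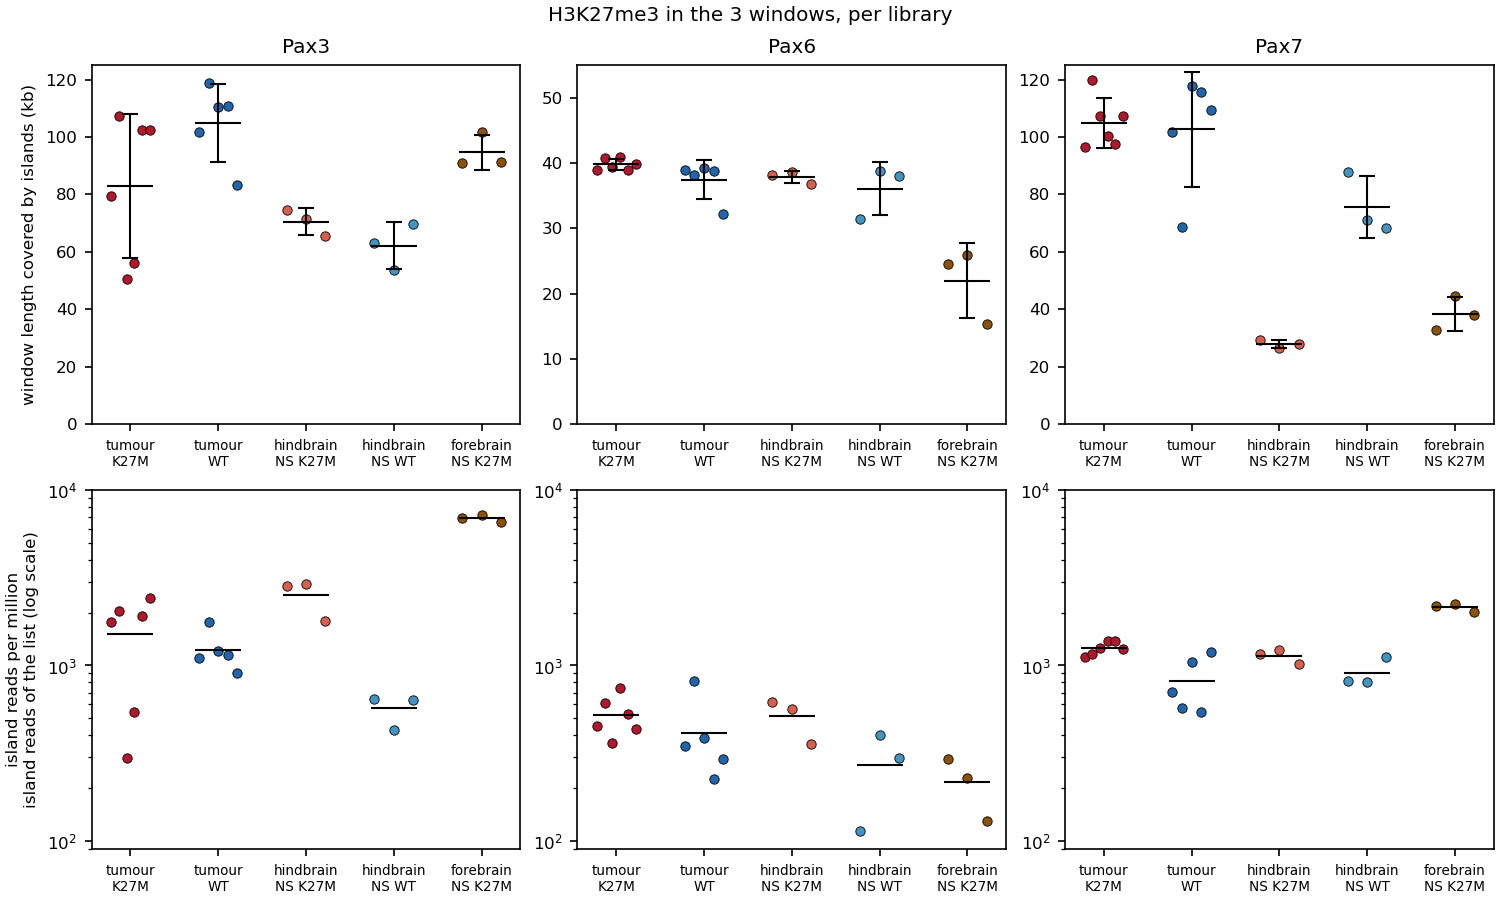
H3K27me3 per library in each window and group: top row, kb covered by islands with mean and SD; bottom row, island RPM on a log axis with the mean as a line. Forebrain K27M neurospheres are highest at Pax3 (mean 6897) and Pax7 (2147) and lowest at Pax6 (217).

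Active marks at Pax3 were found in some tumours. H3K27ac peaks covered 12.5 kb in 15 peaks in K27M tumour 3, 6.54 kb in 5 peaks in tumour 4 and 0.304 kb in 1 peak in tumour 1. The other 3 K27M tumours and all 5 WT tumours had no H3K27ac peak there. All 3 tumours with a peak were male, while 4 of the 5 WT tumours were female. The part of sex in this difference was not tested beyond the values given here. Tumours 3 and 4 are also the 2 with the lowest H3K27me3 read share in the window, a description of 11 tumours with no test. The groups overlapped, with a mean of 3.22 ± 5.23 kb against 0 and p = 0.303 (two-sided exact permutation test). The mean difference was 1.37 kb without tumour 3, 2.20 kb with p = 0.6 when genotype was permuted within sex, and 0 in females alone (both exact, and chosen after seeing the data). H3K27ac covered length did not overlap between the groups in 0.420% of 125 kb tiles and 0.431% of 55 kb tiles.

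The 14 H3K27ac sites at Pax3 began between 12.8 and 115 kb from the window's start, and the 3 sites called in more than 1 tumour began between 100.3 and 115 kb. A 5.49 kb site, chr1:78188999-78194484, was called in K27M tumours 3 and 4 with a fold enrichment of 11.7 to 14.6 by the authors' peak caller. The site chr1:78185349-78187022 was called in tumours 1, 3 and 4, and chr1:78200181-78201052 in tumours 3 and 4. Of all 99012 merged H3K27ac regions, 0.174% were called in exactly tumours 3 and 4. That pair was picked from these Pax3 calls, so the share is a description and not a test. No share is given for the pattern of tumours 1, 3 and 4. In tumour 4, 100% of the peak length lay inside its own H3K27me3 islands, and in tumour 3, 85.5%. Those islands covered 45.0% of the window in tumour 4 and 40.3% in tumour 3.

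H3K4me3 at Pax3 was called in all 5 tumours profiled, none of which was tumour 3 or 4. K27M tumours 2 and 6 had 1.71 and 2.05 kb, and WT tumours 7, 9 and 10 had 2.56, 0.922 and 2.98 kb. The groups overlapped (p = 0.8, two-sided exact permutation test, smallest possible 0.1), as they did in all but 20.9% of 125 kb tiles. The site chr1:78199677-78200959 was called in all 5, and all H3K4me3 peak length lay inside the same tumour's islands.

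At Pax7, islands were again present in all 20 libraries, and 26.4 kb was covered in every one, with chr4:139371201-139394800 as the longest stretch. Forebrain K27M neurospheres had 2181.8, 2241 and 2017 RPM (2147 ± 116, n = 3). Hindbrain K27M had 1162, 1225 and 1024 (1137 ± 103, n = 3), and hindbrain WT had 816, 801 and 1112 (909 ± 175, n = 3). The forebrain libraries were above all others, and the hindbrain genotypes overlapped on this scale, which counts islands whole. With island reads apportioned by the length inside the window, hindbrain K27M had 1162, 1225 and 1024 RPM. Hindbrain WT then had 724, 626 and 773 RPM, without overlap. No share over tiles was computed on either scale. K27M tumours ran from 1121 to 1378 with a median of 1254 (1257 ± 107, n = 6). WT tumours had 709, 570, 1040, 541 and 1198 RPM (812 ± 293, n = 5), and only WT tumour 11 reached the K27M range.

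Covered length at Pax7 was shorter in hindbrain K27M neurospheres. Islands covered 29.4, 26.6 and 27.8 kb in K27M (27.9 ± 1.40, n = 3) and 88.0, 71.0 and 68.2 kb in WT (75.7 ± 10.7, n = 3). The groups did not overlap, and the difference of -47.8 kb had the smallest p possible, 0.1 (two-sided exact permutation test, adjusted p = 0.165). K27M was lower without overlap in 60.3% of 125 kb tiles, so Pax7 did as most tiles did. In all 3 WT and no K27M library 33.8 kb was covered, including chr4:139355801-139366000 and chr4:139395401-139402800 on either side of the stretch kept by all.

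Reads within the shared Pax7 region went the other way. In the 90.2 kb region chr4:139338201-139428400, K27M libraries had 2226, 2398 and 1977 CPM and WT libraries 1002, 1037 and 1094 CPM. The log2 fold was 1.08 (SE 0.12, adjusted p = 0.000503, edgeR), higher in 3 of 3 K27M libraries. Of 3334 regions tested, 25.9% rose with an adjusted p under 0.05 and 30.8% were higher without overlap. The Pax7 region ranked 522 by log2 fold. Its call rests on the scaling: without TMM factors the log2 fold was 0.16 (adjusted p = 0.228).

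Forebrain K27M neurospheres had a larger share of island reads at Pax7 than hindbrain K27M. The 49.2 kb region chr4:139366001-139415200 had 2343, 2464 and 2148 CPM in forebrain and 1279, 1403 and 1079 CPM in hindbrain, and rose with a log2 fold of 0.89 (SE 0.12, adjusted p = 0.00106, edgeR). In this comparison 31.4% of 3363 regions had an adjusted p under 0.05 in either direction, and 25.7% were higher without overlap. Islands covered 32.8, 44.6 and 38.0 kb in forebrain, above all hindbrain K27M libraries (exact permutation p = 0.1, adjusted p = 0.329). Forebrain was higher without overlap in 13.4% of 125 kb tiles.

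Among tumours, Pax7 covered length ran from 96.4 to 120.0 kb in K27M with a median of 103.8 kb (104.8 ± 8.81, n = 6). WT tumours had 101.8, 68.8, 117.8, 115.8 and 109.4 kb (102.7 ± 20.0, n = 5), and the groups overlapped (p = 0.864, two-sided exact permutation test). Of 2 merged regions over the window, chr4:139306201-139441200 had a log2 fold of 0.66 (SE 0.27, adjusted p = 0.130, edgeR) and chr4:139224801-139305400 of -0.37 (adjusted p = 0.563). Without WT tumour 11, the shallowest list, the former was 0.96 with an adjusted p of 0.0212 and the latter turned to 0.17 (adjusted p = 0.742). No tumour had an H3K27ac peak at Pax7, and the only H3K4me3 peak was 0.231 kb in WT tumour 10.

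**Figure D3:**
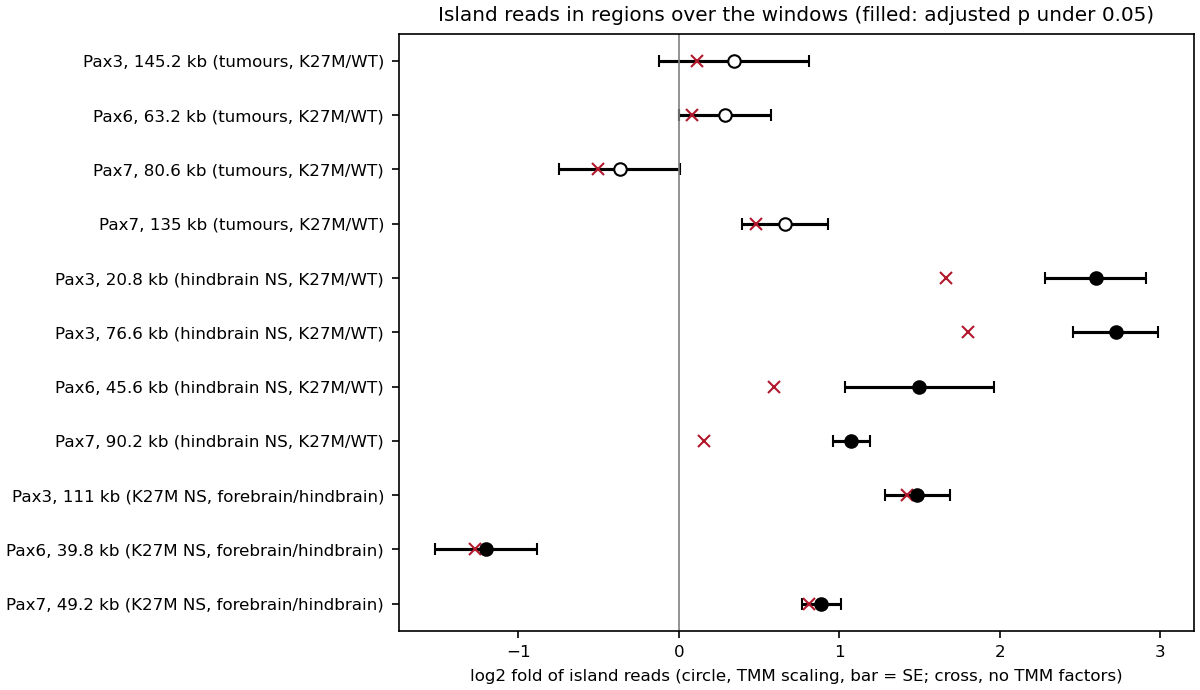
Log2 fold of island reads in each merged region over a window, by comparison, from edgeR with TMM scaling (circles, bars SE; filled where the adjusted p is under 0.05) and without TMM factors (crosses). The hindbrain K27M against WT folds fall without TMM factors, to 1.80 at the larger Pax3 region and 0.16 at Pax7, whereas the forebrain against hindbrain folds stay near their place.

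At Pax6, islands ran past the window's start in every tumour but WT tumour 11, the earliest from chr2:105472801 in WT tumour 8, and the last 14 kb, chr2:105536001-105550000, had no island in any of 20 libraries. Hindbrain K27M neurospheres had 618, 562 and 357 RPM (512 ± 138, n = 3). Hindbrain WT had 115, 403 and 296 (271 ± 146, n = 3), and forebrain K27M had 294, 228 and 129 (217 ± 82.7, n = 3). The hindbrain genotypes overlapped on this scale, and all forebrain libraries were below all hindbrain K27M libraries. Apportioned by length inside the window, hindbrain K27M had 599, 554 and 357 RPM and hindbrain WT 110, 344 and 277. These did not overlap, and no share over tiles was computed on either scale. K27M tumours ran from 364 to 741 with a median of 489 (521 ± 136, n = 6), and WT tumours had 346, 810, 384, 225 and 293 (412 ± 231, n = 5), which overlapped. The forebrain K27M mean was the lowest of the 5 groups at Pax6, overlapping hindbrain WT, and the highest at Pax3 and Pax7.

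The forebrain and hindbrain K27M libraries differed in the extent of Pax6 islands. Islands covered 24.6, 26.0 and 15.4 kb in forebrain and 38.2, 38.6 and 36.8 kb in hindbrain. The groups did not overlap (exact permutation p = 0.1, the smallest possible, adjusted p = 0.352), which 15.8% of 55 kb tiles did in that direction. The 8.0 kb stretch chr2:105524801-105532800 was covered in all 3 hindbrain K27M and no forebrain library. Of 3363 regions tested in edgeR, 31.4% had an adjusted p under 0.05 in either direction and 24.2% were lower in forebrain without overlap. Reads over chr2:105493801-105533600 were 315, 252 and 138 CPM in forebrain and 650, 617 and 358 CPM in hindbrain. They fell with a log2 fold of -1.20 (SE 0.32, adjusted p = 0.0216, edgeR). This call was lost without forebrain experiment 2 (adjusted p = 0.0558), hindbrain experiment 1 (0.0575) or hindbrain experiment 2 (0.0512), and when regions not called in every library also entered (0.0596).

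Between hindbrain genotypes, Pax6 covered length overlapped: 38.2, 38.6 and 36.8 kb in K27M and 31.4, 38.8 and 38.0 kb in WT (p = 0.8, two-sided exact permutation test), where 55.2% of 55 kb tiles did not overlap. Of 3334 regions tested in edgeR, 25.9% rose with an adjusted p under 0.05 and 30.8% were higher in K27M without overlap. Reads over chr2:105488201-105533800 were 1131, 1055 and 655 CPM in K27M and 153, 544 and 308 CPM in WT. The log2 fold was 1.50 (SE 0.46, adjusted p = 0.0317, edgeR). The call was lost without TMM factors (log2 fold 0.59, adjusted p = 0.248), when regions not called in every library also entered (0.0663), in the female experiments 1 and 2 alone, an alternative chosen after seeing the data (0.0903), and without K27M experiment 1 (0.0767), K27M experiment 2 (0.0702) or WT experiment 3 (0.127).

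In tumours, Pax6 islands covered 39.0 to 41.0 kb in K27M with a median of 39.6 kb (39.8 ± 0.88, n = 6) and 39.0, 38.2, 39.2, 38.8 and 32.2 kb in WT (37.5 ± 2.98, n = 5). The groups overlapped, and the 2.35 kb difference had p = 0.0152 unadjusted and 0.389 adjusted over tiles (two-sided exact permutation test). An unadjusted p under 0.05 was found in 8.14% of 55 kb tiles, and none passed after adjustment. Read sums over chr2:105472801-105536000 overlapped (log2 fold 0.29, SE 0.29, adjusted p = 0.548, edgeR).

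**Figure D4:**
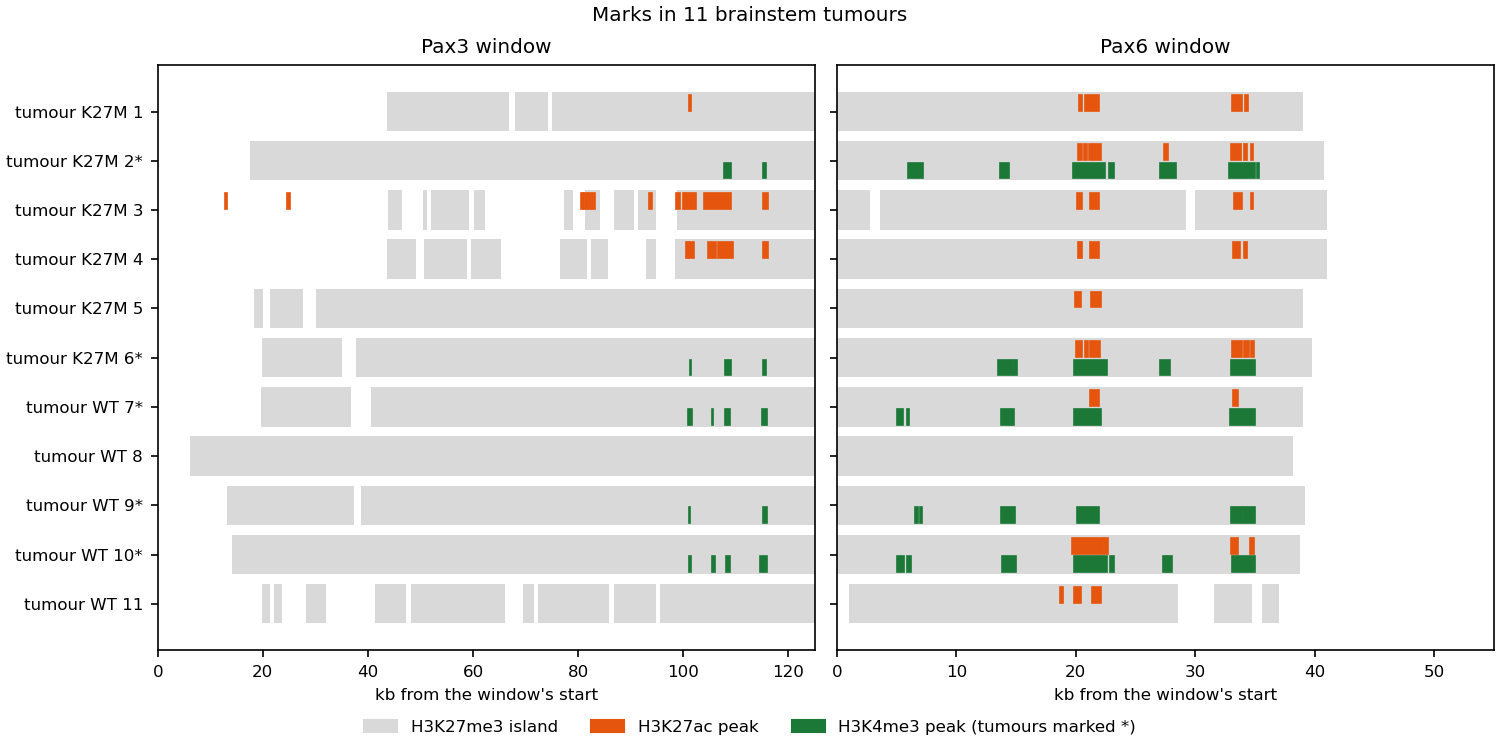
Intervals of each mark in 11 tumours along the Pax3 and Pax6 windows, in kb from the window's start: grey, H3K27me3 islands; orange, H3K27ac peaks; green, H3K4me3 peaks in the 5 tumours marked with an asterisk. H3K27ac at Pax3 is called in K27M tumours 1, 3 and 4, and at Pax6 in 6 of 6 K27M and 3 of 5 WT tumours.

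Active marks at Pax6 sat inside H3K27me3 islands, which covered from 58.5% (WT tumour 11) to 74.5% (K27M tumour 4) of the window in tumours. The share of peak length inside islands was not computed over the genome, so overlap here or at Pax3 is a description. H3K27ac peaks covered 1.29 to 3.32 kb in K27M tumours with a median of 2.31 kb, and 1.13, 0, 0, 3.79 and 1.62 kb in WT tumours. The groups overlapped (2.38 ± 0.81 against 1.31 ± 1.56 kb, p = 0.175, two-sided exact permutation test). The site chr2:105514719-105517285 was called in 6 of 6 K27M and 3 of 5 WT tumours. The site chr2:105529070-105529474 was called in 4 of 6 K27M and 0 of 5 WT tumours (Fisher's exact test, p = 0.0606, adjusted p = 0.845), and no H3K27ac region passed adjustment among 14880 tested, although 2.44% had an unadjusted p under 0.05.

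H3K4me3 at Pax6 covered 8.80 and 7.07 kb in K27M tumours 2 and 6 and 5.99, 5.39 and 7.90 kb in WT tumours 7, 9 and 10. The groups overlapped (p = 0.3, two-sided exact permutation test, smallest possible 0.1), as they did in all but 19.3% of 55 kb tiles. The broadest site, chr2:105514743-105517634, was called in all 5 and overlapped the H3K27ac site found in 9 of 11 tumours. All H3K27ac and H3K4me3 peak length at Pax6, 100% in each tumour, lay inside the islands of the same tumour.

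The K27M effect was set against itself between tumours and hindbrain neurospheres. Genotype was permuted separately in each set, so the null was no K27M effect in either, not equal effects. These p-values therefore cannot decide whether the effects differ. At Pax3, K27M minus WT in mean log2 RPM was -0.02 in tumours and 2.13 in hindbrain, and the difference did not pass (exact permutation p = 0.0545, adjusted p = 0.109 over 6 tests). At Pax7, covered length moved by 2.11 kb in tumours and by -47.8 kb in hindbrain, which also failed the adjustment (exact permutation p = 0.0432, adjusted p = 0.109). Pax3 covered length gave an adjusted p of 0.109 and the 3 other differences gave 0.492 to 0.839.

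Across 20 lists, the shares of Pax3 and Pax7 were correlated at r = 0.55, Pax3 with Pax6 at -0.10 and Pax6 with Pax7 at -0.16. Of 7811 regions outside the windows called in at least 10 lists, the one most like Pax3 was chr9:91227401-91366600 (r = 0.82), the one most like Pax6 chr9:37255601-37273400 (r = 0.78) and the one most like Pax7 chr11:4637601-4659400 (r = 0.87). The libraries share groups that differ in list length, so these values are descriptions with no p.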

How the data were processed

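Per the labels' protocols, chromatin was immunoprecipitated with antibodies to H3K27me3, H3K27ac or H3K4me3, with Drosophila S2 chromatin added; no scale factor was used here. Per the submitters' processing notes, the work used SICER 1.1 and MACS2, BWA 0.7.12, bedtools 2.25.0, Picard, SAMtools and R 2.14.0, on mm9. The deposited H3K27me3 lists give a count of whole reads per island, on a 200 bp grid; the authors' notes give no role per tool. The deposited narrowPeak lists carry for each peak a -log10 q-value, a -log10 p-value, a ratio of fold enrichment, a score and a summit offset. Only positions, the fold enrichment and the -log10 q-value were used here.

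Islands were clipped to windows for covered length. Groups were compared by two-sided exact permutation tests, with Benjamini-Hochberg adjustment over autosomal tiles of the window's length. Reads were summed per merged region called in every library and tested with edgeR 4.0.16 in R 4.3.3 (quasi-likelihood, TMM, threshold 0.05), and DESeq2 1.42.0 was an alternative. CPM is relative to those regions. Fisher's exact test served for H3K27ac calls. Figures used matplotlib 3.10.9 and other steps Python 3.11.15, numpy 2.4.6, pandas 2.3.3 and SciPy 1.17.1. The tile permutation test, edgeR and Fisher's exact test were also run on simulated data.

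Named regions are those overlapping a window, and the most alike by correlation over 20 lists. The members and lists were chosen with earlier results of these data known. Other Pax genes and cell type markers could not be placed, since no mm9 annotation was used here. Whether replicates are separate animals is not given. Tumour libraries carry separate tumour numbers, with both sexes in each genotype. The spread behind a neurosphere p-value may be technical. The labels give neurosphere libraries an experiment number that groups share. Forebrain and hindbrain K27M titles with the same number also share a letter (A, B or C), while hindbrain WT titles have D, E or F. The main tests did not pair libraries. Libraries with the same number deviated from their group means with correlations of 0.21, 0.24 and 0.21 for forebrain with hindbrain K27M. For the hindbrain genotypes these were 0.10, -0.03 and 0.02. Tumour sex was an alternative, as was leaving out each library. Neurosphere experiments 1 and 2 alone, and sex for H3K27ac and H3K4me3, were alternatives chosen after seeing the data.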

Additional observations from a re-analysis of the deposited data

Results flagged for a closer look

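In 15 sets of tumour values with a spread, 2 had a library far from the rest of its group, where chance gives about 1 in 20. WT tumour 11 had 32.2 kb of Pax6 covered by islands, the lowest of 5 WT tumours by a gap of 0.857 of their range, and it has the shallowest list. WT tumour 8 had an island read share of 810 per 1000000 at Pax6, the highest of 5, by a gap of 0.729 of their range. Its island began before the window, at chr2:105472801, and was counted whole. Apportioned by length inside the window, its share was 513, against 265, 308, 175 and 293 in WT tumours 7, 9, 10 and 11. The flag was not computed on that scale.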

How the results depend on the processing

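Of 426 recomputed values over 32 results, 8 changed sign, 21 lost and 2 gained a p under the threshold, and 13 counts moved. Of the other 382, 2 fell to 0, both for differences that were not called. The Pax6 covered-length difference in tumours (2.35 kb) lost its unadjusted p under 0.05 with islands counted whole (0.86 kb), with only islands that lie mostly in the window (1.89), with a wider window (1.58), within sex (1.67) and in females (2.35), and ran from 1.03 to 2.78 kb when single tumours were left out, where it also lost that p without K27M tumours 2, 3, 4 or 6 (exact p = 0.0556 each) or WT tumour 11 (0.0810). Differences that changed sign were not called: Pax7 in tumours (-6.37 to 5.88 kb with single tumours left out, -3.43 within sex), Pax6 in hindbrain (-0.53 to 3.17 kb with single libraries left out, -1.07 with islands counted whole, -2.20 with a wider window), Pax3 H3K4me3 (-0.892 to 0.136 kb with single tumours left out) and the Pax7 region chr4:139224801-139305400 in tumours (log2 fold -0.56 to 0.17 with single tumours left out, the latter without WT tumour 11). Pax6 H3K27ac ran from 0.743 to 1.69 kb and passed without WT tumour 10. For these, the cause was not tested.

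Among all regions, tumour calls were 218 higher and 143 lower. DESeq2 gave 339 and 295, no TMM factors gave 300 lower, adding regions not called in every library gave 3 lower, and leaving out single tumours gave 79 to 159 lower. Hindbrain calls were 863 higher and 946 lower, against 319 and 2129 without TMM factors and 4523 lower with those added regions. Forebrain against hindbrain gave 535 lower, against 1362 with that last setting. With experiment number as a replicate block, no Pax region changed its call, and Pax6 in hindbrain had a log2 fold of 1.62 (edgeR, adjusted p = 0.0391).

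Island lists hold no reads outside islands, so a window without an island has no value, and list depth bears on covered length. With 3 libraries per group, an exact test cannot go below 0.1. Covered length in forebrain against hindbrain K27M neurospheres was also tested by flipping signs within experiment number. This exact test gave p = 0.25 at Pax3, Pax6 and Pax7, the lowest value that 3 pairs allow.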
